A study of Homo sapiens with 4 samples.

Results

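PARP9 and its partner gene DTX3L were the genes of this family with the widest difference between FOXP4 KO and control 293T cells. PARP9 had 623 and 572 counts (reads assigned to the gene) in the 2 FOXP4 KO libraries, against 6 and 38 counts in the 2 control libraries. DTX3L had 774 and 642 counts in the KO libraries, against 8 and 36 counts in the control libraries. Most of the summed level of these genes came from PARP1, which was present at a lower level in the KO libraries. The genes described here are PARP1, PARP2, PARP3, PARP4, PARP8, PARP9, PARP10, PARP12, PARP14 and DTX3L. They were taken by symbol, 10 genes of the 20263 in the table of transcript levels, and 9 of them are among the 15218 genes of the count table, from which PARP14 is absent. The genes were chosen by a rule made with their fold changes between KO and control cells already known, the higher PARP9 and DTX3L among them, so their differences between KO and control cells are given as a description. No test is drawn from them.

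The samples were HEK293T cells, a human embryonic kidney line that carries the SV40 large T antigen, grown without any further treatment. The groups were FOXP4 KO cells (2 libraries) and control cells (2 libraries). FOXP4 is a forkhead transcription factor, and the question was which genes respond to its loss. The sources describe the KO cells in different ways. In the account of the results they are a CRISPR-Cas9 knockout, in the methods they come from an shRNA virus with puromycin selection, and the sample labels speak of a knock down. Both KO libraries carry the same line number in their titles, so they appear to come from 1 line, and no source says whether the replicates were separate cultures. The spread between replicates, and every p-value, may therefore be technical. FOXP4 itself had 713 and 886 counts in the KO libraries and 2562 and 2463 counts in the control libraries, a log2 fold change of −1.78 (SE 0.185, adjusted p = 0.0038 by edgeR's quasi-likelihood test).

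Total counts were 42150257 and 41796690 in the KO libraries and 36393224 and 43057305 in the control libraries. Of 14620 genes with enough counts to test, edgeR called 13.8% higher and 12.1% lower in KO cells at a Benjamini-Hochberg adjusted p under 0.05, and the median log2 fold change of all tested genes was 0.009. Of 6 markers of the line fixed by symbol, all 6 were in the count table. NEFM was higher in KO cells (log2 fold change 1.97), and VIM (−1.99) and CDH2 (−0.80) were lower. The 6 summed to 389 to 461 TPM (transcripts of 1000000, a level corrected for transcript length) in KO libraries. In control libraries they summed to 870 to 1033 TPM, and their part in the values below was not tested. Of 5 epithelial genes 4 were tested, and EPCAM and CDH1 were higher in KO cells by 3.56 and 2.50 on the log2 scale. KRT8 and KRT18 had 0.52 and −0.03 and were not called, and KRT7 was listed at 0 TPM in all 4 libraries. The epithelial genes summed to 266 to 275 TPM in KO libraries and 171 to 252 TPM in control libraries. The summed level of 5 leukocyte genes was 1.51 to 1.999 TPM in KO libraries and 2.50 to 3.52 TPM in control libraries. The part of the leukocyte genes in the values below was not tested. Of 4 fibroblast genes 2 were tested and 1 was called, PDGFRB, with 75 and 78 counts in KO libraries and 20 and 12 counts in control libraries. The fibroblast genes summed to 7.72 to 12.1 TPM in KO libraries and 6.04 to 7.35 TPM in control libraries, and the part of the epithelial and fibroblast genes in the values below was not tested either. Endothelial and hepatocyte genes summed to at most 0.116 and 0.444 TPM in any library. The erythroid gene HBB was listed at 0 TPM in all 4 libraries. HBA1, its partner in hemoglobin, had 107 and 101 counts in KO libraries and 9 and 7 counts in control libraries.

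PARP enzymes transfer ADP-ribose from NAD to proteins and nucleic acids. PARP1 and PARP2 sense broken DNA and build long chains of ADP-ribose there, which gather repair proteins, and drugs against both enzymes are used in ovarian cancer. Most other members add a single ADP-ribose unit. PARP9, PARP10, PARP12 and PARP14 are known as interferon-stimulated genes, and PARP9 works as a dimer with DTX3L, a ubiquitin ligase of the Deltex family, in DNA damage and antiviral responses. Both are read from opposite strands of the same stretch of chromosome 3 and are known to share a promoter that responds to interferon.

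The promoter windows of DTX3L, PARP14 and PARP12 are printed because they hold the same interferon element while the genes differ in level. The sequences are from RefSeq (GRCh38.p14), cover 300 bases with 250 before the start and 50 from it, and are written 5′ to 3′ on the strand of the gene. Capitals mark a core of the interferon-stimulated response element, GAAA and GAAA with 2 further bases between them, searched on both strands, so that on the opposite strand it reads TTTC and TTTC.
DTX3L, chr3:122564088-122564387, forward strand: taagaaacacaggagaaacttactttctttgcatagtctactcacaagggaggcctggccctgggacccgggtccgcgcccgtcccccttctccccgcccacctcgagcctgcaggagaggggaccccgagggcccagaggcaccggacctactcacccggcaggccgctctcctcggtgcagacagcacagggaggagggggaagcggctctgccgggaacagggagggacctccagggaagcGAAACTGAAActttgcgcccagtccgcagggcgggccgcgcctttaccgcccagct
PARP14, chr3:122680589-122680888, forward strand: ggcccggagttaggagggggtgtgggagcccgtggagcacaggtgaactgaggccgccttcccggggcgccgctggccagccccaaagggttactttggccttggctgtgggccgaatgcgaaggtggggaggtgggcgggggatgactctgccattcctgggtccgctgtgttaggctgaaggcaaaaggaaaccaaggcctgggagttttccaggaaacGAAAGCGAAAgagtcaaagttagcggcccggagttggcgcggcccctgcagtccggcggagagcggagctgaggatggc
PARP12, chr7:140062902-140063201, reverse strand: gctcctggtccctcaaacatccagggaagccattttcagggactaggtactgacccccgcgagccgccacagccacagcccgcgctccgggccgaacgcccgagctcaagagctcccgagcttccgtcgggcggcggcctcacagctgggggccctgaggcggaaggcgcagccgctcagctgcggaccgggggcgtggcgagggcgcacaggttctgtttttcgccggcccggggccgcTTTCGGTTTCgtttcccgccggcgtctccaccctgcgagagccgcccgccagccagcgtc

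The core lies with its first base 6 bases before the start of DTX3L, 29 before that of PARP14 and 10 before that of PARP12. The same genomic bases, 122564332 to 122564341 of chromosome 3, also lie in a window of PARP9, with the first base 41 bases before its nearer start. That start and the start of DTX3L lie head to head 38 bases apart, and the windows share 137 bases. Windows were at hand for 8 of the 10 genes, 11 windows in all, with none for PARP4 and PARP10. Of these 8 genes 4 had the core in a window, with PARP9 and DTX3L counted for the same bases. The other window of PARP9 did not hold it. Counted by window and not by gene, 3.57% of 35116 windows of all genes hold the core, so the shares are not of like units. A STAT site, TTCNNNGAA, was found for PARP2 and PARP14, and 7.66% of all windows hold it. The forkhead word TGTTTAC, on either strand, was in no window of these genes, and 3.42% of all windows hold it. Such matches describe the letters in these windows and show no binding.

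The ADP-ribosyltransferase PARP9 (ENSG00000138496, chr3:122527924-122564577, reverse strand, GRCh38, GENCODE v29) was nearly absent in control cells. In counts normalized to a library of 1000000 (CPM), it had 14.4 and 13.7 CPM in KO libraries, against 0.169 and 0.880 CPM in control libraries. The KO libraries lay close together and far above both control libraries, which differed from each other. The mean was 14.1 ± 0.537 CPM in KO cells and 0.525 ± 0.502 CPM in control cells (SD, n = 2 each). The log2 fold change was 4.69 (SE 0.564), the 24th highest of the 14620 tested genes.

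DTX3L (ENSG00000163840, chr3:122564238-122575203, forward strand), the E3 ubiquitin ligase that binds PARP9, had nearly the same pattern. It had 17.9 and 15.4 CPM in KO libraries, against 0.226 and 0.834 CPM in control libraries. The mean was 16.7 ± 1.83 CPM in KO cells and 0.530 ± 0.430 CPM in control cells (SD, n = 2 each). The log2 fold change was 4.92 (SE 0.486), the 22nd highest of the tested genes. The 2 control libraries again lay apart, with control 2 above control 1. In both genes the KO libraries carried the gene through the filter on low counts, since control 1 was below it.

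The size of both differences rested on which control library was used. PARP9 was 5.20 times higher in control 2 than in control 1 after scaling (95% exact interval 2.18 to 15.04, which covers counting error only), and the ratio for DTX3L was 3.69 (1.69 to 9.20). Between the 2 control libraries, the log2 ratio of PARP9 was at the 99.4th percentile of all tested genes by size, and that of DTX3L at the 98.8th. Without control 1 the log2 fold change was 3.97 for PARP9 and 4.29 for DTX3L, and without control 2 it was 6.34 and 6.18. These values describe the spread of genes that were picked for this difference.

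PARP9 and DTX3L were both higher in KO libraries, the difference for which they were picked. The ratio of PARP9 counts to DTX3L counts was 0.805 and 0.891 in KO libraries, and 0.75 and 1.06 in control libraries. In TPM the ratio spread wider, with 1.08 and 1.25 in KO libraries, 0.598 in control 1 and 1.10 in control 2. Over the 4 libraries the gene nearest to PARP9 in its pattern was DTX3L, and the nearest to DTX3L was PARP9. The Euclidean distance between their centred log2 CPM values was 0.324. Such a distance takes in the gap between KO and control cells that chose both genes, so it is a description and no support for a link. GRAMD3 lay practically as near to DTX3L, at 0.330, and at 0.519 from PARP9, so the nearness is not particular to the pair. RASAL1, CXCL16 and DTX3 came after it for both genes, at 0.480 to 0.687. RASAL1, a Ras GTPase-activating protein, had 603 and 556 counts in KO libraries and 10 and 38 counts in control libraries. CXCL16, a chemokine, had 1076 and 1317 counts in KO libraries, against 12 and 46 counts in control libraries. These likenesses rest on 4 libraries only, and whether the libraries were prepared together is not stated. The annotated spans of PARP9 and DTX3L overlap by 340 bases and their exons share 217 bases, 2.43% of the exonic bases of PARP9 and 3.70% of those of DTX3L. Whether the counting used strand is not stated, so reads from these shared bases cannot be told apart.

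**Figure D1:**
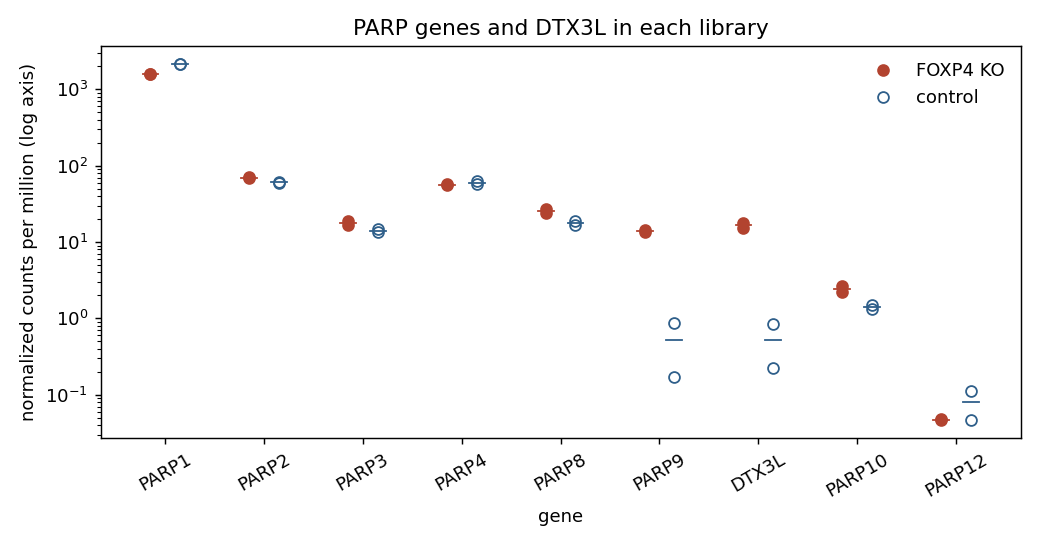
CPM on a log axis for the 9 genes of the count table, with FOXP4 KO libraries as filled points left of control libraries as open points (n = 2 each) and a bar at each mean. PARP9 and DTX3L lie between 13.7 and 17.9 CPM in KO libraries and between 0.169 and 0.880 CPM in control libraries, while the other genes differ little beside them.

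Of the 10 genes, 8 could be tested, and 2 of the 8, PARP9 and DTX3L, were called higher in KO cells, where 13.8% of all tested genes were. None was called lower, where 12.1% of all tested genes were. At an unadjusted p under 0.05 edgeR had 4 higher and 1 lower, where 41% of all tested genes passed in either direction. DESeq2 called 3 higher (PARP8 added) and 1 lower (PARP1), where it called 30.1% of all tested genes and edgeR 25.8%. Both KO libraries lay above both control libraries in CPM for 6 of the 8 genes, where 35.5% of all tested genes did. Both lay below for 1, where 33.2% did, and 1 overlapped. The contrast chose the genes, so nothing is read from these counts.

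The main enzyme of the family at DNA breaks, PARP1 (chr1:226360691-226408079, reverse strand), had 1591 and 1581 CPM in KO libraries, against 2142 and 2162 CPM in control libraries. The groups did not overlap, and the libraries of each group lay close together. The log2 fold change was −0.44 (SE 0.128), which was not called by edgeR with its usual scaling. It was called lower with DESeq2's size factors, DESeq2, limma-voom, a mean count of at least 50, and both filtered fits of TPM values. Pseudogenes of PARP1 are annotated, and reads shared with them could not be separated.

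PARP2 (chr14:20343582-20357905, forward strand), the second chain-building enzyme at breaks, had 70.3 and 68.2 CPM in KO libraries, against 60.2 and 60.6 CPM in control libraries. The log2 fold change was 0.20 (SE 0.107) and was not called. PARP3 (chr3:51942345-51948867, forward strand), which adds single ADP-ribose units at breaks, had 16.8 and 18.7 CPM in KO libraries, against 13.5 and 14.7 CPM in control libraries. Its log2 fold change was 0.33 (SE 0.158) and was not called. In both genes the KO libraries were the higher ones, without overlap.

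PARP4 (chr13:24420926-24512810, reverse strand) is the PARP of the vault, a large ribonucleoprotein particle. It had 55.9 and 56.8 CPM in KO libraries, against 56.8 and 62.7 CPM in control libraries. The groups met at 56.8 CPM, and the log2 fold change was −0.08 (SE 0.115). PARP4 has annotated pseudogenes as well, with the same uncertainty about shared reads.

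The mono-ADP-ribosyltransferase PARP8 (chr5:50665899-50846522, forward strand) had 24.0 and 27.03 CPM in KO libraries, against 19.0 and 16.9 CPM in control libraries. The log2 fold change was 0.51 (SE 0.152) and was not called, while upper-quartile scaling, library totals, DESeq2, limma-voom and a mean count of at least 50 called it higher. In TPM, which also divides by transcript length, the gene did not separate. It had 10.1 and 11.5 TPM in KO libraries, against 15.5 and 8.52 TPM in control libraries, so that control 1 was the highest and control 2 the lowest. The fold change of log2(TPM + 1) was −0.09, with the opposite sign. The ratio of TPM to CPM of PARP8 was 1.63 times higher in control 1 than in control 2, where the median of all tested genes was 0.977 and 0.92% of genes were at or above 1.63. The direction of PARP8 therefore depends on the table that is read.

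PARP10 (chr8:143977153-144012772, reverse strand), a mono-ADP-ribosyltransferase known to be induced by interferon, was scarce. It had 95 and 111 counts in KO libraries, against 47 and 64 counts in control libraries. The groups did not overlap, and the log2 fold change was 0.79 (SE 0.270) without a call. Its exons share 8.64% of their bases with GRINA and SPATC1 on the other strand, so part of these few counts may not be told apart from theirs.

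The remaining interferon-stimulated members were at the limit of detection. PARP12 (chr7:140023744-140063721, reverse strand), a zinc finger PARP with antiviral activity, had 2 and 2 counts in KO libraries, against 4 and 2 counts in control libraries. These are at or near the 3 counts that a count of 0 allows. The filter on low counts removed PARP12, so it was not tested and no fold is given. PARP14 (chr3:122680618-122730840, forward strand), a macrodomain PARP known as a cofactor of STAT6, was listed at 0 and 0 TPM in KO libraries, against 0 and 0.017 TPM in control libraries. PARP12 had 0.015 and 0.016 TPM in KO libraries, against 0.060 and 0.025 TPM in control libraries. Thus PARP9 and DTX3L reached 5.75 to 7.19 TPM in KO libraries while PARP12 and PARP14, whose windows hold the same core, did not pass 0.016 TPM there. Neither PARP12 nor PARP14 rose as PARP9 and DTX3L did, while a small difference or a fall in them was not detectable at this depth.

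Levels can be set against each other in TPM. PARP1 had 824 and 811 TPM in KO libraries, against 1120 and 1158 TPM in control libraries, and so held 85.4% and 85.3% of the summed level of the 10 genes in KO libraries and 90.3% and 90.8% in control libraries. The summed level was 950 to 966 TPM in KO libraries and 1241 to 1275 TPM in control libraries. PARP2 came next, with 78.9 and 74.7 TPM in KO libraries and 68.0 and 68.7 TPM in control libraries. PARP4 followed with 20.6 and 20.7 TPM in KO libraries, against 21.0 and 23.8 TPM in control libraries, and PARP3 with 16.4 and 16.9 TPM, against 14.5 and 14.6 TPM.

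Below PARP3 the order differed between the groups. In KO libraries PARP8 was followed by PARP9 with 6.62 and 7.19 TPM and by DTX3L with 6.13 and 5.75 TPM, and PARP10 came after them with 2.36 and 2.44 TPM. In control libraries PARP10 had 1.56 and 1.41 TPM and stood above DTX3L with 0.078 and 0.293 TPM and PARP9 with 0.046 and 0.322 TPM. PARP9 and DTX3L overlapped in the control libraries, and PARP3 overlapped with PARP8 there. The numbers of the KO columns of the TPM table were not tied to a replicate, so those values are not matched to the KO counts library by library.

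None of the other tested genes of the PARP family was called by edgeR. Of the 8 listed, 7 were tested, and 0 were called higher and 0 lower, where 13.8% and 12.1% of all tested genes were. The median log2 fold change of the 7 was −0.06. At an unadjusted p under 0.05 edgeR had 1 higher and 1 lower, where 41% of all tested genes passed in either direction. With so few genes nothing is read from these counts. DESeq2 called ZC3HAV1 lower. PARP6, a mono-ADP-ribosyltransferase, had a log2 fold change of 0.33 (SE 0.117, adjusted p = 0.083 by edgeR) and was called with upper-quartile scaling. ZC3HAV1, the zinc finger antiviral protein also called PARP13, had −0.34 (SE 0.111, adjusted p = 0.07 by edgeR). PARP11, PARP16, TIPARP and the telomere-binding tankyrases TNKS and TNKS2 had log2 fold changes from −0.15 to 0.06. PARP15 was listed at 0 TPM in all 4 libraries.

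The other Deltex genes, which encode ubiquitin ligases of the kind of DTX3L, held larger differences. DTX3 had 1467 and 1671 counts in KO libraries, against 24 and 69 counts in control libraries. Its log2 fold change was 5.00 (SE 0.375, adjusted p = 0.0018 by edgeR). DTX1, a regulator of Notch signalling, had 106 and 95 counts in KO libraries, against 17 and 16 counts in control libraries, with a log2 fold change of 2.48 (SE 0.321, adjusted p = 0.0061 by edgeR). DTX2 had −0.38 (SE 0.188) and DTX4 0.67 (SE 0.462), neither called. Of the 4 genes 2 rose and 0 fell, where 13.8% and 12.1% of all tested genes did, and the counts were the same with each library left out.

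**Figure D2:**
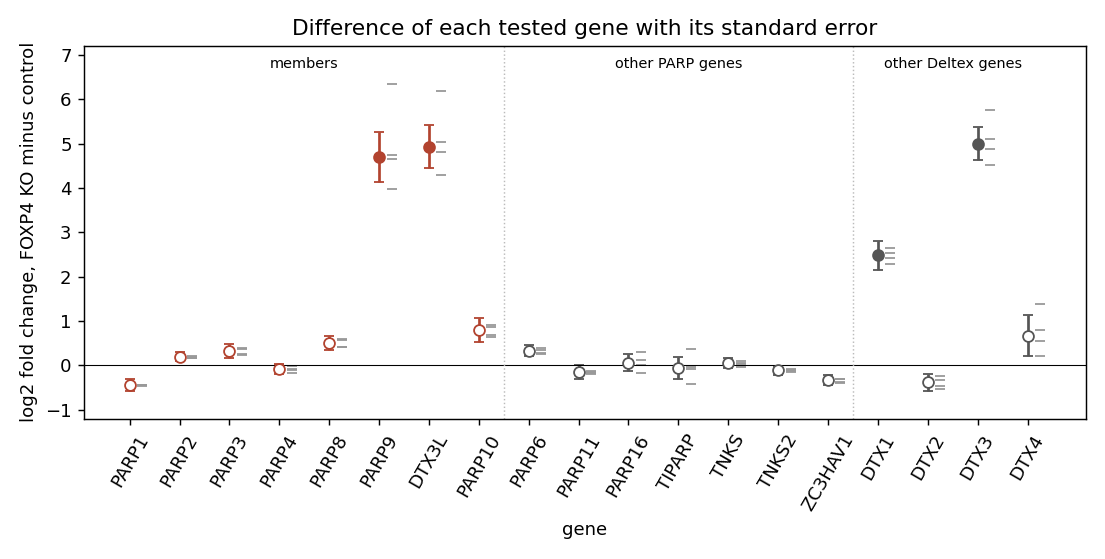
Log2 fold change (FOXP4 KO minus control, vertical axis) with its standard error for the 8 tested genes described here, the 7 other tested PARP genes and the 4 other Deltex genes. Filled points were called by edgeR, and grey dashes are the fits with 1 library left out, which for PARP9 run from 3.97 to 6.34 and for DTX3L from 4.29 to 6.18.

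Around PARP9 and DTX3L edgeR with its usual scaling called no other tested gene. Of 22 other protein-coding genes that start within 1 Mb of the start of DTX3L, 15 were tested. It called 0 higher and 0 lower, where 13.8% and 12.1% of all tested genes were. At an unadjusted p under 0.05 edgeR had 3, where 41% of all tested genes passed in either direction. With so few genes nothing is read from these counts. The median log2 fold change of the 15 was 0.12. The 3 genes, named after their values were seen, were HCLS1 (−2.73, adjusted p = 0.065 by edgeR, and called lower by DESeq2), SEMA5B (1.50, adjusted p = 0.11) and FAM162A (0.34, adjusted p = 0.065). KPNA1, the nearest tested neighbour, starts 49.3 kb away and had a log2 fold change of −0.08 (SE 0.117). On the other side PARP15 starts 13.4 kb and PARP14 116.4 kb from DTX3L, and both were listed at or near 0 TPM. Without control 2, edgeR called 1 neighbour higher and 1 lower.

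Enzymes that remove or use up ADP-ribose differed among themselves. Of 8 listed genes, 4 rose and 1 fell, where 13.8% and 12.1% of all tested genes did, and the median log2 fold change was 0.44. ADPRH, which frees arginine from ADP-ribose, had 55 and 56 counts in KO libraries, against 11 and 4 counts in control libraries (log2 fold change 2.73, adjusted p = 0.017 by edgeR). The macrodomain hydrolases MACROD1, MACROD2 and OARD1, which act on acidic residues, rose by 1.26, 1.17 and 0.56. ADPRS, the hydrolase for ADP-ribose on serine, fell by 0.51 (adjusted p = 0.034 by edgeR). PARG, which degrades the chains, and the ADP-ribose pyrophosphatases NUDT5 and NUDT9 had 0.10, 0.06 and 0.32 and were not called. These calls were lost with fewer libraries, since without KO 1 or without KO 2 edgeR called 0 of the 8. Without control 1 it called 2 higher and 1 lower, and without control 2 it called 3 higher and 0 lower.

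Of 16 genes that work in strand break repair with PARP1 and PARP2, 2 rose and 0 fell, against 13.8% and 12.1% of all tested genes, and the median was −0.11. At an unadjusted p under 0.05 the list had 3 higher and 1 lower. HPF1, which directs PARP1 and PARP2 to serine residues, had 1371 and 1538 counts in KO libraries, against 867 and 928 counts in control libraries. Its log2 fold change was 0.58 (SE 0.150, adjusted p = 0.036 by edgeR), and the call was lost without any 1 of the 4 libraries. XRCC1, the scaffold drawn to ADP-ribose chains, and its ligase LIG3 had −0.28 and −0.31 and were not called. Of the vault genes, MVP had 0.59 and TEP1 −0.06, and neither was called.

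NAD is the substrate of the PARP enzymes. Of 9 genes of its synthesis, 4 rose and 1 fell, against 13.8% and 12.1% of all tested genes, with a median of 0.66. NAPRT, which starts the route from nicotinic acid, rose by 1.05 (adjusted p = 0.0066 by edgeR). NMNAT1, the nuclear enzyme that completes NAD, rose by 1.08, its relative NMNAT3 by 1.28 and the riboside kinase NMRK2 by 2.47. QPRT, which feeds the route from tryptophan, fell by 0.51 (adjusted p = 0.040 by edgeR). Without KO 1 or KO 2 the counts were 2 higher and 0 lower, without control 1 they were 3 and 1, and without control 2 they were 5 and 0.

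The genes that carry interferon signals to PARP9 and DTX3L in other settings held calls in both directions. Of 16 receptors, kinases and STATs, 1 rose and 4 fell, against 13.8% and 12.1% of all tested genes, with a median of −0.26. IRF9, the DNA-binding partner of STAT2, had 67 and 100 counts in KO libraries, against 175 and 283 counts in control libraries (log2 fold change −1.54, adjusted p = 0.016 by edgeR). The receptor chains IFNAR1 and IFNAR2 fell by 0.52 each and the kinase JAK1 by 0.63. USP18, a brake on the receptor, rose by 0.56. STAT2 had 0.15 (SE 0.120) and was not called. Without KO 1 edgeR called 0 higher and 0 lower, without KO 2 it called 0 and 1, without control 1 it called 0 and 2, and without control 2 it called 1 and 3.

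Of 40 interferon-stimulated genes outside the family, 29 were tested, 16 rose and 2 fell, where 13.8% and 12.1% of all tested genes did, and the median log2 fold change was 0.98, against 0.009 for all tested genes. Another 11 were tested and not called, OASL and SAMD9L were too low to test, and 9 were absent from the count table. Those tested and not called included ISG15 at 0.13, IFIT1 at 0.37 and IFIT3 at −0.23, named after their values were seen. Of the 9 absent genes, MX1, MX2, RSAD2, IFI44, CMPK2 and PSMB8 had both KO libraries above both control libraries in TPM. None of these passed 0.562 TPM, and OAS1, OAS2 and XAF1 overlapped. The 4 with the lowest p among those that rose were OAS3, UBE2L6, SP110 and IFIH1. OAS3, which makes the oligoadenylates that activate RNase L, had 1950 and 2106 counts in KO libraries, against 2 and 4 counts in control libraries. UBE2L6, the conjugating enzyme for ISG15, rose by 3.31, SP110, a nuclear body protein, by 3.08, and IFIH1, the RNA sensor MDA5, by 3.77. HELZ2, a helicase, fell by 0.75 and HERC5, the ligase for ISG15, by 0.61. With 1 library left out, 9 (without KO 1, and without KO 2), 13 (without control 1) or 14 (without control 2) rose, and 1 fell in each of these fits except that without KO 2, where 0 fell. PARP10, PARP12 and PARP14 are also known to be induced by interferon. PARP10 had a log2 fold change of 0.79 and was not called, with both KO libraries above both control libraries. PARP12 and PARP14 could not be tested. Whether interferon had a part in any of these values was not tested.

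**Figure D3:**
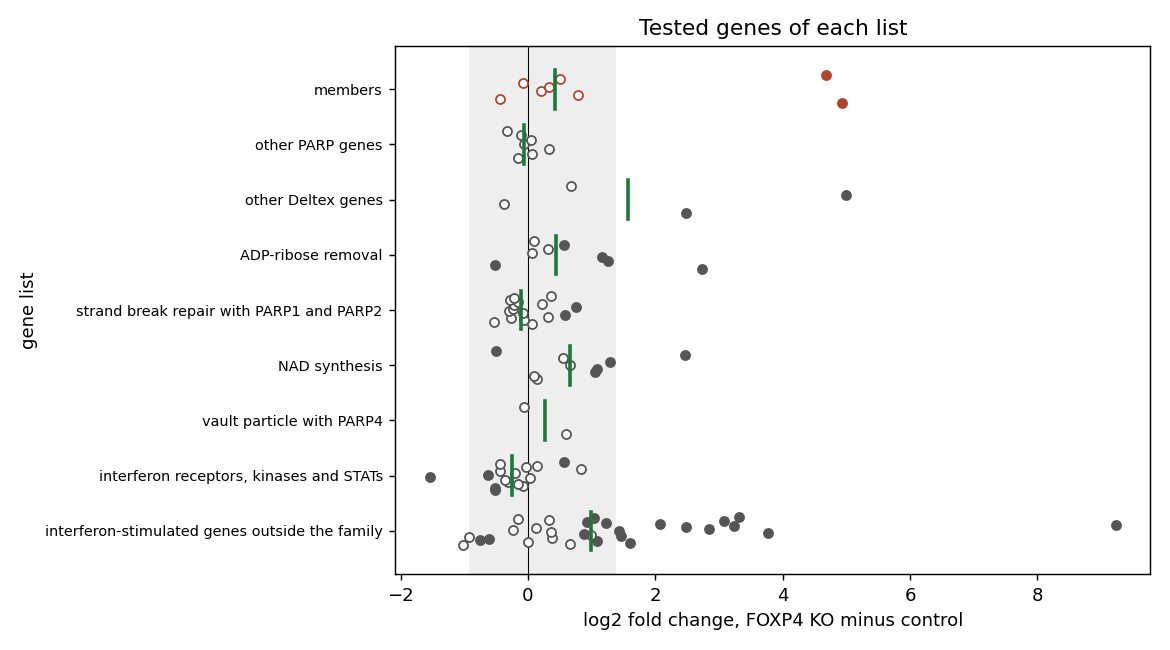
Log2 fold change (FOXP4 KO minus control, horizontal axis) of each tested gene by list, with filled points called by edgeR, a green bar at each median and a grey band from the 5th to the 95th percentile of all tested genes (−0.91 to 1.37). PARP9 and DTX3L lie beyond the band at 4.69 and 4.92, as do DTX3 at 5.00 and OAS3 at 9.24.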

How the data were processed

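RNA was sequenced from 2 FOXP4 KO and 2 control HEK293T libraries made with a messenger RNA kit. The labels name a column kit for extraction and the methods TRIzol. The authors deposited raw counts per gene, without a count of 0, and a table of TPM values per gene. Which aligner and counter were used is not given in the sources used here. GRCm38 and mm10, both mouse builds, stand in the submitters' processing notes, although the symbols are human. Groups were taken from the sample titles.

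Counts were fitted by the quasi-likelihood test of edgeR 4.0.16 under R 4.3.3, after filterByExpr and TMM scaling, with Benjamini-Hochberg adjustment over 14620 genes and a threshold of 0.05. All fold changes are log2 values of KO over control. The common biological coefficient of variation was 0.165. With 2 against 2 libraries an exact permutation test of a single gene cannot go below 0.33. The fit was tested on simulated data. A count of 3 was taken as the limit that a count of 0 allows, and intervals have a level of 95%.

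The alternatives were other scalings and filters, DESeq2 1.42.0, limma 3.58.1 (voom, and trend on log2(TPM + 1) or log2(TPM + 0.1), with a mean TPM of at least 0.5 or no filter), a block for the replicate number, and fits that leave out 1 library. The genes described and all lists were chosen with earlier results of these data known. Named genes are the 10 members, FOXP4, all genes of lists of 8 or fewer, in longer lists up to 4 called genes of lowest p in each direction with HPF1, XRCC1, LIG3, STAT2 and IRF9, and the 5 genes nearest to PARP9 and to DTX3L. A few genes that the rule takes are counted in their lists but not reported here singly. Likeness was the Euclidean distance of centred log2 CPM with a prior count of 2. Positions are from GENCODE v29 and promoter windows from RefSeq, matched by symbol.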

Additional observations from a re-analysis of the deposited data

How the results depend on the processing

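Of the members, which were picked for their difference in this contrast, PARP1 was called lower, making 1 member lower, with DESeq2's size factors, DESeq2, limma-voom, a mean count of at least 50 and log2(TPM + 1) or log2(TPM + 0.1) with a filter, and in none of the fits with 1 library left out. With 1 library left out the genes higher in KO cells numbered 639 to 2013 and the genes lower 467 to 1614, the pathway genes 13 to 26 higher and 1 to 5 lower, and the neighbours of DTX3L 0 to 1 in each direction. With log2(TPM + 1) and no filter 349 genes were higher and 297 lower, with 12 pathway genes higher and 1 lower, and FOXP4 was not called. With upper-quartile scaling or library totals 5 pathway genes were lower, against 8 with the usual scaling. Of the neighbours, 1 was higher with upper-quartile scaling and with the replicate block, and DESeq2 called 1 lower. The cause of these changes was not tested.

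Over the genes named, 18 uncalled values changed sign, in 6 of the 15 alternatives. In the TPM fits (log2(TPM + 1) with or without a filter, then log2(TPM + 0.1)) PARP8 had −0.0905 and −0.0933, PARP16 −0.00105 and −6.84e-06, TIPARP 0.0828 and 0.0900, and NUDT5 −0.0351 and −0.0354. With upper-quartile scaling TIPARP had 0.0096 and TEP1 0.0159. With 1 library left out PARP16 ran from −0.173 to 0.300, TIPARP from −0.427 to 0.373, TNKS from −0.0395 to 0.108 and TEP1 from −0.304 to 0.195.

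The replicate block gave log2 fold changes of 4.84 for PARP9 and 5.01 for DTX3L, as a description, with 1981 of all genes higher and 1637 lower. The deviations of same-numbered libraries had a correlation of −0.003, so no pairing was seen in the expression values. Whether same-numbered libraries were cultured or prepared together cannot be told from it. Control counts of 6 to 38 limit how well the size of both differences is known. The direction of both was known when the genes were picked and was not tested. PARP12 and PARP14 were too low in both groups for a fold change.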
